A study of Mus musculus with 12 samples.

Results

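Of 11360 genes tested, 2515 placed all 3 libraries of a knockdown of lncRNA8276, a long noncoding RNA, outside the whole range of 6 control libraries. In 1228 genes the 3 knockdown values all lay above the 6 control values, and in 1287 they all lay below. These genes were found by comparing the knockdown libraries (8276KD) with 2 control groups at the same time, 3NC and 5NC, on the log2(value + 1) scale, among genes that reached 1 in 3 or more of the 12 libraries of the series. A gene of this kind keeps its direction whichever control group is used. The comparison asks which differences of the knockdown cells do not rest on the choice of control.

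The cells were C18-4, an established line that was made from spermatogonial stem cells of the mouse, and all 12 libraries were made from their total RNA. The labels name the strain as "IRC mouse". Each of the 4 groups held 3 libraries: 3NC, 5NC, 8276KD (a virus that inhibits lncRNA8276) and 8276OV (a virus that overexpresses it), and the labels do not spell out 3NC or 5NC. The 8276OV libraries entered only the filter and the shared estimate of spread, and their values are set beside those of leading genes. Whether the 3 libraries of a group are separate cultures is not stated in the labels. The p-values therefore measure the spread among the libraries alone, and that spread could be technical. The level of lncRNA8276 was not analysed here, so the labels were not checked by it.

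Long noncoding RNAs are transcripts without a protein product, many of which act on the transcription, processing or stability of other RNAs. Spermatogonial stem cells divide to renew themselves or enter the path to sperm, and depend on signals from Sertoli cells such as GDNF. Several of the gene groups below belong to general cell physiology: the unfolded protein response matches the folding capacity of the endoplasmic reticulum (ER) to its load, and the circadian clock is a feedback loop of transcription factors that repress their own activators.

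Values were read as FPKM, fragment counts scaled for transcript length and library total, and the column sums ranged from 533099 to 561940. The depth implied by the steps of the values was 11900000 to 13000000 fragments per library, and 10929 to 11165 genes had a value of 1 or more. Libraries correlated (Pearson's r over genes) at 0.993 to 0.998 within a group, 0.985 to 0.988 between 8276KD and 3NC, 0.978 to 0.982 between 8276KD and 5NC, and 0.974 to 0.976 between the control groups. The slope of log2 value on GC content, per 10 points, was -0.0402 and -0.00192 in 8276KD replicates 1 and 3 and 0.184 in replicate 2, so replicate 2 stood apart within its group, while the 6 controls had slopes of 0.103 to 0.198. Of 35 stem spermatogonia markers, 19 stayed below 1 in all 12 libraries. Gfra1, the GDNF co-receptor, reached at most 0.17, Ret, the GDNF receptor kinase, 0.01, and the germ cell genes Ddx4 and Dazl 0.03 and 0.05, so the labelled cell type lacked several of its defining markers. Upk3b and Msln, markers of mesothelium, reached 804 and 93.9. Lrrn4, another such marker, reached only 9.02 and was at 1.04 to 1.32 in 3NC. Of 21 mesothelial and surface epithelial markers, 3 stayed below 1 in all 12 libraries. The summed level of 21 mesothelial and surface epithelial markers was 1116 to 1127 in 3NC, 2032 to 2057 in 5NC and 1545 to 1643 in 8276KD, which lay between the controls. In such bulk libraries fewer cells of a type and less RNA per cell cannot be told apart.

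The genes outside all controls made up 22.1% of genes tested, 10.8% above and 11.3% below. Most of them lay close to the control range. The gap, defined as the distance on the log2(value + 1) scale between the nearest knockdown value and the nearest control value, had a median of 0.0845 above and 0.085 below. It exceeded 0.25 in 138 genes above and 171 below, and 0.5 in 11 above and 33 below. The largest gaps were 1.17 above and 1.08 below. At the edge of the rule, Plp2 reached 139 to 159 in the controls and 159 to 167 in 8276KD, and Rexo2 reached 57.4 to 67.8 and 67.8 to 75.5. Myh10 (48 to 55.2 in the controls, 46.1 to 48 in 8276KD) and Polr2m (119 to 134 and 114 to 119) were the nearest below. Just outside, a knockdown library tied with a control library for Entpd6 (9.12), Fastkd3 (6.64), Anks6 (3.76) and Atrip (5.42).

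In the limma fit of 8276KD against the mean of both control groups, 2356 genes were higher (20.7% of genes tested) and 2782 lower (24.5%), at an adjusted p under 0.05, or 45.2% in either direction. Against 3NC alone 20% were higher and 19.5% lower, and against 5NC alone 24.7% and 30.5%. Of the genes above all controls 1190 of 1228 were called higher, and of those below 1236 of 1287 were called lower. The same values decide the rule and enter this fit, so the p-values give the size of a difference against the spread and no further support for its place. A stricter requirement, a call in the same direction against 3NC and against 5NC, was met by 990 higher genes (8.71%) and 958 lower genes (8.43%). It was met by 925 of the genes above and 886 of those below. The means of the control groups lay within 0.2 of each other on the log2(value + 1) scale for 831 genes above (67.7%) and 822 below (63.9%), against 48.8% of all genes tested. A wide control range is harder to clear, so the rule itself favours genes with like controls. These shares describe that selection and are no separate result. In the plot of both differences the rule itself places the genes outside all controls in the upper right and lower left quadrants.

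**Figure D1:**
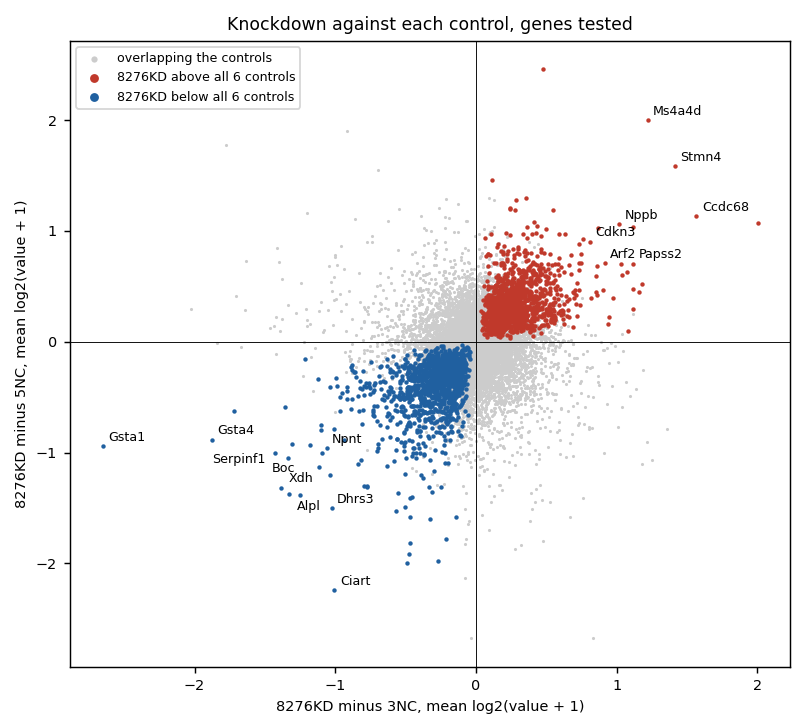
Mean log2(value + 1) of 8276KD minus 3NC (horizontal axis) and minus 5NC (vertical axis), a point per tested gene. Red points are the 1228 genes above all 6 controls, blue points the 1287 below, and grey points the genes that overlap the controls; named genes are examples with large differences.

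Gene positions below are those of RefSeq on GRCm38.p6. Stmn4, a stathmin that destabilises microtubules (gene 56471, chromosome 14, 66344210 to 66361680), had the largest gap above the controls (1.17). Its values were 0.66, 0.39 and 0.56 in 3NC, 0.35, 0.42 and 0.32 in 5NC and 3.17, 3.37 and 2.74 in 8276KD. The gene was close to silent in the controls and in 8276OV (0.33, 0.48 and 0.56), and no control library came near the knockdown (difference 1.5 on the log2(value + 1) scale, SE 0.0805, adjusted p = 3.00e-08). Cdkn3, a phosphatase that acts on cyclin-dependent kinases (gene 72391, chromosome 14, 46760461 to 46771530), was at 25.2, 22.9 and 25.8 in 3NC, 22.9, 22.5 and 23.8 in 5NC and 44.2, 45.1 and 42.4 in 8276KD. The control groups overlapped each other here and the knockdown stood clear of them (difference 0.86, SE 0.0597, adjusted p = 2.58e-07), and 8276OV was at 40.7, 35.4 and 43.6. Mcam, an adhesion molecule of the immunoglobulin family also known as CD146, was at 45.7, 43.9 and 44.9 in 3NC, 40.1, 41.5 and 40.0 in 5NC and 66.8, 67.1 and 65.7 in 8276KD. It rose by 0.63 (SE 0.0362, adjusted p = 4.40e-08), while 8276OV, at 39.8, 43 and 42, overlapped the controls.

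Sf3b6, a subunit of the SF3b splicing complex, had nearly equal controls, with 53.7, 54.1 and 52.5 in 3NC, 54.5, 52.4 and 52.1 in 5NC and 83.1, 83.3 and 82 in 8276KD (difference 0.63, SE 0.043, adjusted p = 2.25e-07). Its 8276OV values were 92.9, 81.2 and 91.8, also above all controls. Pik3ap1, an adaptor that links receptors to phosphoinositide 3-kinase, rose by 0.73 (controls 0.8 to 1.11, 8276KD 2.16 to 2.34). Epas1, a hypoxia-inducible transcription factor, was at 5.31, 5.24 and 5.17 in 3NC, 4.72, 5.34 and 4.78 in 5NC and 7.83, 8.12 and 7.78 in 8276KD, and at 3.85, 4.1 and 3.71 in 8276OV. Every control library of Epas1 lay below every knockdown library and above every 8276OV library. Nppb, the precursor of B-type natriuretic peptide, rose by 1.04 at a low level (controls 0.21 to 0.72, 8276KD 1.76 to 2.31). Papss2, which makes the sulfate donor of cells, rose by 0.91, the small GTPase Arf2 by 0.81, the LIM protein Crip1 by 0.72, the deubiquitinase Otud1 by 0.69 and the RNA-binding protein Larp1b by 0.67. Ccdc68 rose by 1.35 and the membrane-spanning protein Ms4a4d by 1.61. 8276OV was also above all controls for Papss2 (8.81, 8.46 and 8.51), Arf2 (120.49, 114.35 and 120.37) and Ccdc68 (9.79, 8.77 and 9.62). The same held for Crip1 (329.68, 301.39 and 351.29) and Nppb (1.12, 1.49 and 2.22). It overlapped the controls for Otud1, Larp1b and Pik3ap1, and was below them for Ms4a4d (0.35, 0.87 and 0.79). Rsc1a1 was also in this set (1.97, 4.04 and 4.19 in 8276KD), but it was listed at 0 in 2 of the 3NC libraries and overlaps Ddi2, so it is uncertain.

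Xdh, the xanthine dehydrogenase that completes purine breakdown to uric acid (gene 22436, chromosome 17, 73883895 to 73950397), had the largest gap below the controls (1.08). Its values were 8.25, 8.61 and 7.38 in 3NC, 7.62, 7.45 and 7.87 in 5NC and 2.96, 2.24 and 2.25 in 8276KD. The 6 controls lay close together and the knockdown was below every control library (difference -1.35, SE 0.0724, adjusted p = 3.00e-08), with 8276OV at 3.49, 3.79 and 3.99. Boc, a co-receptor of Hedgehog ligands, was at 2, 1.76 and 2.09 in 3NC, 2.03, 2 and 1.9 in 5NC and 0.35, 0.36 and 0.37 in 8276KD (-1.12, SE 0.0636, adjusted p = 4.19e-08). Alpl, the tissue-nonspecific alkaline phosphatase, was at 4.5, 4.61 and 5.98 in 3NC, 5.42, 4.69 and 5.47 in 5NC and 1.26, 1.75 and 1.2 in 8276KD (-1.35, SE 0.0979, adjusted p = 3.84e-07). Boc and Alpl were low in 8276OV too, at 0.59, 0.65 and 0.79 and 1.24, 1.61 and 1.7.

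Npnt, nephronectin, a basement membrane ligand of integrins (gene 114249, chromosome 3, 132881745 to 132950291), was at 5.85, 5.64 and 6.15 in 3NC, 5.3, 5.23 and 5.69 in 5NC and 2.35, 2.27 and 2.26 in 8276KD. Its controls overlapped each other and the knockdown had less than any of them (difference -1.01, SE 0.0571, adjusted p = 4.13e-08), while 8276OV was at 5, 4.88 and 4.25. Cp, ceruloplasmin, the copper protein that oxidises iron, fell by 1.05 (controls 9.86 to 12.7, 8276KD 4.42 to 5.08). Serpinf1, a secreted serpin known as PEDF, fell by 1.19 (controls 40.3 to 51.1, 8276KD 18.6 to 21). Osmr, the receptor of oncostatin M, was at 11.8, 11.9 and 11.3 in 3NC, 10.9, 11.9 and 10.9 in 5NC and 6.23, 5.19 and 5.42 in 8276KD, with 8276OV at 11.7, 10.7 and 10.8, overlapping the controls. Dhrs3, which reduces retinaldehyde to retinol, fell by 1.26, the calcium-binding S100a16 by 0.97, the exocytosis calcium sensor Syt7 by 1.21 and the glutathione transferase Gsta4 by 1.38. For Gsta4 the step to 8276KD (196.51, 186.44 and 185.28) was larger from 3NC (708.34, 700.99 and 682.67) than from 5NC (335.14, 355.24 and 360.73). Ugt1a6a, a glucuronosyltransferase that fell by 1.11, is uncertain because its span overlaps 13 other genes, most of the same family. The spans of Dhrs3 and Vps13d, of Cp and Hps3 and of Xdh and the predicted gene Gm18068 overlap as well. Boc, Npnt, Ccl5, Ciart, Ccdc68, Papss2, Pik3ap1, Otud1 and Larp1b also overlap predicted, clone-named or microRNA genes. The handling of strand is not given in the sources used here, so reads from shared stretches cannot be told apart.

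**Figure D2:**
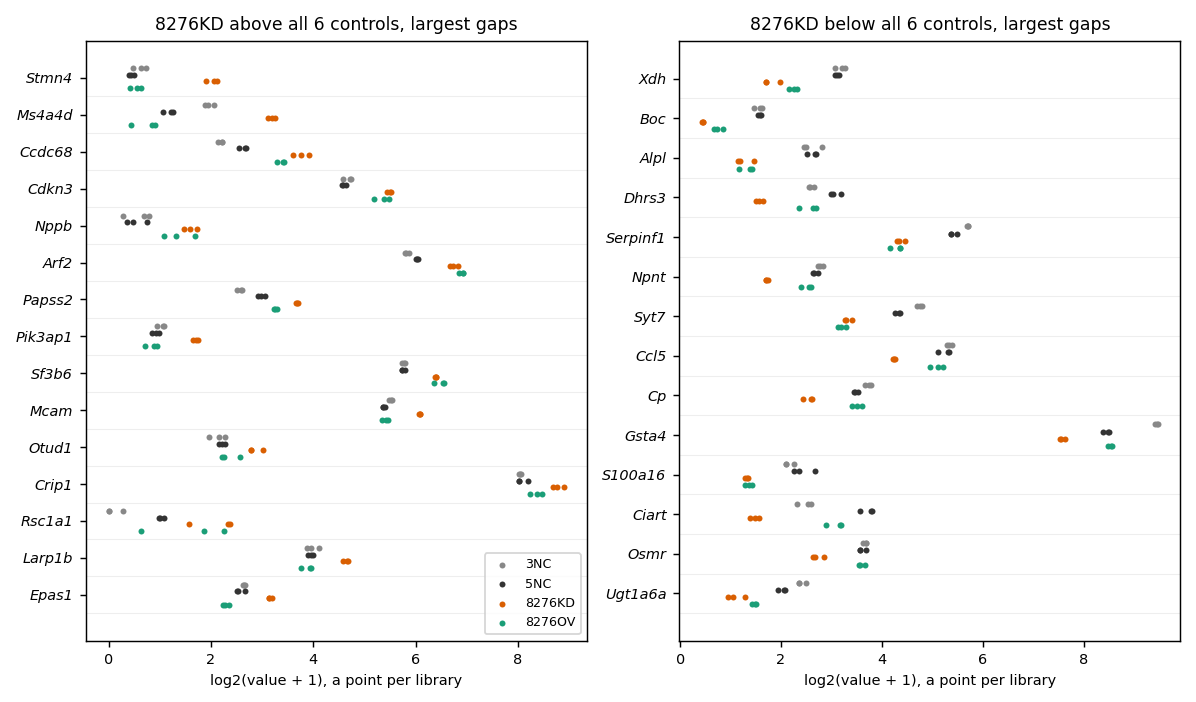
log2(value + 1) of genes with the largest gaps above (left, 15 genes) and below (right, 14 genes) all 6 controls, a point per library and a colour per group. The 8276KD points of each gene lie beyond all 3NC and 5NC points, and the 8276OV points lie above, among or below the controls, depending on the gene.

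The list of 33 genes of the unfolded protein response and the integrated stress response divided into 12 genes above all controls (36.4%) and 11 below (33.3%), against 10.8% and 11.3% of all genes tested. In the limma fit 14 rose and 14 fell, where 20.7% and 24.5% of all genes tested did. The counts of every list below are to be read beside these shares of all genes. Of the 12 and the 11 genes, 11 and 10 stayed outside the controls under each of 4 other scalings of the libraries (quantile normalization, median-of-ratios factors, and corrections for GC content without and with transcript length). The genes above mostly encode chaperones and folding enzymes of the ER. The genes below include the transcription factors of the integrated stress response and the genes they switch on. The rule itself gives each of these differences the same sign against either control group, so only their sizes are informative. Calr was higher by 0.41 against 3NC and 0.53 against 5NC, and Ppp1r15a was lower, at -0.56 and -0.88.

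Calr, calreticulin, a calcium-binding chaperone of glycoproteins, was at 1133, 1159 and 1146 in 3NC, 1048, 1062 and 1049 in 5NC and 1479, 1542 and 1535 in 8276KD (difference 0.47, SE 0.029, adjusted p = 9.21e-08). Edem1, which sends misfolded glycoproteins to degradation, was at 25.1, 26.7 and 25.6 in 3NC, 20.2, 20.7 and 19.4 in 5NC and 36.4, 34.3 and 37.5 in 8276KD (0.64, SE 0.0419, adjusted p = 1.57e-07). The control groups of Edem1 differed from each other, and the knockdown exceeded the higher of them. The protein disulfide isomerases Pdia6 and Pdia3 rose by 0.43 and 0.34. 8276OV was also above all controls for Pdia6 (426.89, 424.85 and 413.18) and Pdia3 (913.6, 834.31 and 898.7). It overlapped the controls for Calr (1097.67, 1141.16 and 1162.07) and Edem1 (20.62, 20.7 and 21.12). The following genes were chosen after their values were seen. Hspa5, the chaperone BiP that senses unfolded proteins in the ER, was at 1002, 1034 and 996 in 3NC, 499, 523 and 503 in 5NC and 1269, 1167 and 1267 in 8276KD (0.78, SE 0.0354, adjusted p = 7.92e-09). Its 5NC libraries were far below the 3NC libraries, so most of the pooled difference came from 5NC (1.28, against 0.29 for 3NC). Manf, a secreted ER stress factor, showed the same order of groups, with 93.8, 97.3 and 97.5 in 3NC, 50.8, 48.4 and 48.1 in 5NC and 111, 121 and 109 in 8276KD. Hsp90b1, the ER member of the HSP90 family, rose by 0.39, Creld2 by 0.50, the co-chaperone Dnajc3 by 0.35, Pdia4 by 0.31, calnexin (Canx) by 0.23 and the degradation adaptor Sel1l by 0.20. Xbp1, the factor activated by splicing in this response, overlapped the controls at 46, 44.7 and 47.2 (adjusted p = 0.249), and so did Atf6 at 20.6, 17.9 and 18.8 (adjusted p = 0.765).

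Ppp1r15a, also known as GADD34, which directs the phosphatase that restores translation, was at 60.9, 58 and 61.1 in 3NC, 72.2, 76.2 and 77.1 in 5NC and 41.1, 40.8 and 39.2 in 8276KD (-0.72, SE 0.0484, adjusted p = 1.90e-07). Trib3, a pseudokinase induced by ATF4 and CHOP, was at 66.1, 62 and 64.1 in 3NC, 127, 123 and 126 in 5NC and 40.7, 45.7 and 42 in 8276KD (-1.05, SE 0.0556, adjusted p = 2.92e-08). Ern1, the ER stress sensor IRE1 alpha, fell by 0.59 (controls 8.93 to 10.8, 8276KD 5.93 to 6.46), and the lipoprotein receptor Vldlr by 0.73 (controls 14.1 to 20.8, 8276KD 9.23 to 10.5). Chac1, which degrades glutathione, fell by 1.24, with 38.48, 40.19 and 43.09 in 3NC, 113.51, 120.57 and 116.53 in 5NC and 27.18, 33.84 and 25.28 in 8276KD. Most of the pooled difference of Chac1 came from 5NC. 8276OV was also below all controls for Ppp1r15a (46.51, 53.85 and 53.43) and Ern1 (7.36, 8.86 and 7.18), and lay between the control groups for Chac1 (53.25, 71.11 and 58.09). Apart from these, further genes were again chosen after their values were seen. Ddit3, which encodes CHOP, was at 88.4, 88.4 and 86 in 3NC, 107, 103 and 108 in 5NC and 59, 66.1 and 63.7 in 8276KD, and 8276OV was above all controls at 122, 133 and 119. Atf4 itself fell by 0.34, with 354, 344 and 360.5 in 3NC, 472, 442 and 455 in 5NC and 312, 336 and 305 in 8276KD. The step from 3NC to the knockdown was small for Atf4 and larger from 5NC. The stress regulator Nupr1 fell by 1.14, the asparagine synthetase Asns by 0.33 and Herpud1 by 0.30. Fgf21, another target of ATF4, did not leave the control range: it was at 8.76, 9.5 and 8.98 in 3NC, 59.9, 62.1 and 63.5 in 5NC and 8.38, 10.2 and 8.04 in 8276KD, and the knockdown overlapped 3NC.

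Promoters from RefSeq (GRCm38.p6, 250 bases before to 50 after the first listed start) were matched for 9139 of the tested genes and searched on both strands. The ER stress response element, searched as CCAAT and CCACG with any 9 bases between them, was added after the values were seen. It overlaps the CCAAT box by definition, and CCAAT alone was in 39.9% of the promoters. The whole element was in 16 of the 9139 promoters (0.175%). Of these genes 10 were above all controls, 6 overlapped them and 0 were below, and in the limma fit 11 were called higher and 0 lower. Of the 11 genes of the stress list above the controls that have a promoter in the table, 7 held the element, against 0 of the 11 genes of the list below. The list and the element both come from what is known of this response, so the split is no separate result. The site shared by Creld2 and Alg12 counts for both genes. A match is a description of the sequence and shows neither binding nor a cause. The sites are shown because they are what most of these genes above the controls share, with the CCAAT and CCACG boxes in capitals, each written along the strand on which the element reads in this order:
Hspa5: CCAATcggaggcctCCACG
Hsp90b1, farther from the start: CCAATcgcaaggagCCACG
Hsp90b1, nearer to the start: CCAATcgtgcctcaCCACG
Calr: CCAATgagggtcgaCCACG
Pdia6: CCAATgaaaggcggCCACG
Dnajc3: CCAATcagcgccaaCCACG
Canx: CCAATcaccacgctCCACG
Creld2 and Alg12, a site shared by neighbouring genes: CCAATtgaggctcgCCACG
Derl3: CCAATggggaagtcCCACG
Ero1lb: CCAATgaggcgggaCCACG

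The Hspa5 site starts 65 bases before the start of transcription, that of Dnajc3 105 and that of Pdia6 98 bases before it. Of the genes outside the list, Derl3, which moves misfolded proteins out of the ER, was at 1.76, 2.07 and 1.53 in 3NC, 1.59, 2.02 and 2.13 in 5NC and 3.53, 4.15 and 2.75 in 8276KD (0.64, SE 0.11, adjusted p = 4.11e-04). Ero1lb, an ER oxidase, rose by 0.36 and the mannosyltransferase Alg12 by 0.30. The 6 genes with the element that overlapped the controls were Acacb, Adcy3, Spats2l, Hnrnpa3, Pan2 and Syvn1, with differences from -0.15 (Acacb) to 0.16 (Hnrnpa3). The 250 bases before the start of Hspa5 (chr2:34771840-34772089, plus strand, GRCm38.p6) show the element in its setting, with its 19 bases in capitals:
Hspa5 promoter: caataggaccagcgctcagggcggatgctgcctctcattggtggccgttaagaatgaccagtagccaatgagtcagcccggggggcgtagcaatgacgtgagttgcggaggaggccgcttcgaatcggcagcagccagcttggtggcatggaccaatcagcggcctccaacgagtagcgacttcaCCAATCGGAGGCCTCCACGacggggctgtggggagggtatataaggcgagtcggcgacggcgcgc

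Clock genes outside the controls all lay on the lower side. Of 16 tested genes 10 lay below all controls (62.5%) and 0 above, against 11.3% and 10.8% of all genes tested. In the limma fit 13 fell and 0 rose, where 24.5% and 20.7% of all genes did. Of the 10 genes 8 stayed below under each of the 4 other scalings. Ciart, a repressor of the CLOCK and BMAL1 activators, was at 5.07, 3.95 and 4.8 in 3NC, 10.9, 12.8 and 12.9 in 5NC and 1.8, 1.94 and 1.61 in 8276KD (difference -1.63, SE 0.0864, adjusted p = 2.93e-08). The control groups of Ciart differed widely and the knockdown was below the lower of them, while 8276OV was at 8.05, 8.11 and 6.43. Per2, a period protein of the repressing arm, was at 2.32, 2.2 and 2.25 in 3NC, 1.86, 1.94 and 2.05 in 5NC and 1.01, 1.01 and 0.9 in 8276KD (-0.65, SE 0.0617, adjusted p = 3.22e-06). Nfil3, a repressor of D-box genes, was at 16.6, 16.7 and 16.2 in 3NC, 23, 24.8 and 24.5 in 5NC and 12, 12.3 and 11.3 in 8276KD (-0.70, SE 0.0431, adjusted p = 8.76e-08). Bhlhe41, another repressor of the clock known as DEC2, was at 2.56, 2.52 and 2.31 in 3NC, 1.19, 1.21 and 1.13 in 5NC and 0.76, 0.79 and 0.66 in 8276KD (-0.66, SE 0.0586, adjusted p = 1.87e-06). 8276OV was also below all controls for Per2 (0.94, 1.06 and 1.23) and Bhlhe41 (0.9, 1.0 and 0.94), and lay between the control groups for Nfil3 (17.5, 18.14 and 17.87). Further genes below were chosen after their values were seen: the D-box activators Dbp and Tef fell by 0.66 and 0.32, and Nr1d2, Cry2 and Bhlhe40 by 0.26, 0.25 and 0.16. The activators overlapped the controls: Clock was at 10.7, 11.2 and 10.8 in 3NC, 10.8, 12 and 12.2 in 5NC and 13.2, 9.89 and 12.4 in 8276KD (adjusted p = 0.586), and Arntl, which encodes BMAL1, at 7.31, 6.43 and 6.78 in 3NC, 5.93, 5.77 and 6.13 in 5NC and 6.13, 5.58 and 6.13 in 8276KD (adjusted p = 0.244). Nr1d1, the repressor REV-ERB alpha, lay between its controls, with 9.35, 9.12 and 9.82 in 3NC, 3.53, 3.9 and 3.42 in 5NC and 4.96, 5.65 and 4.18 in 8276KD. No label gives the hour at which the cells were collected.

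**Figure D3:**
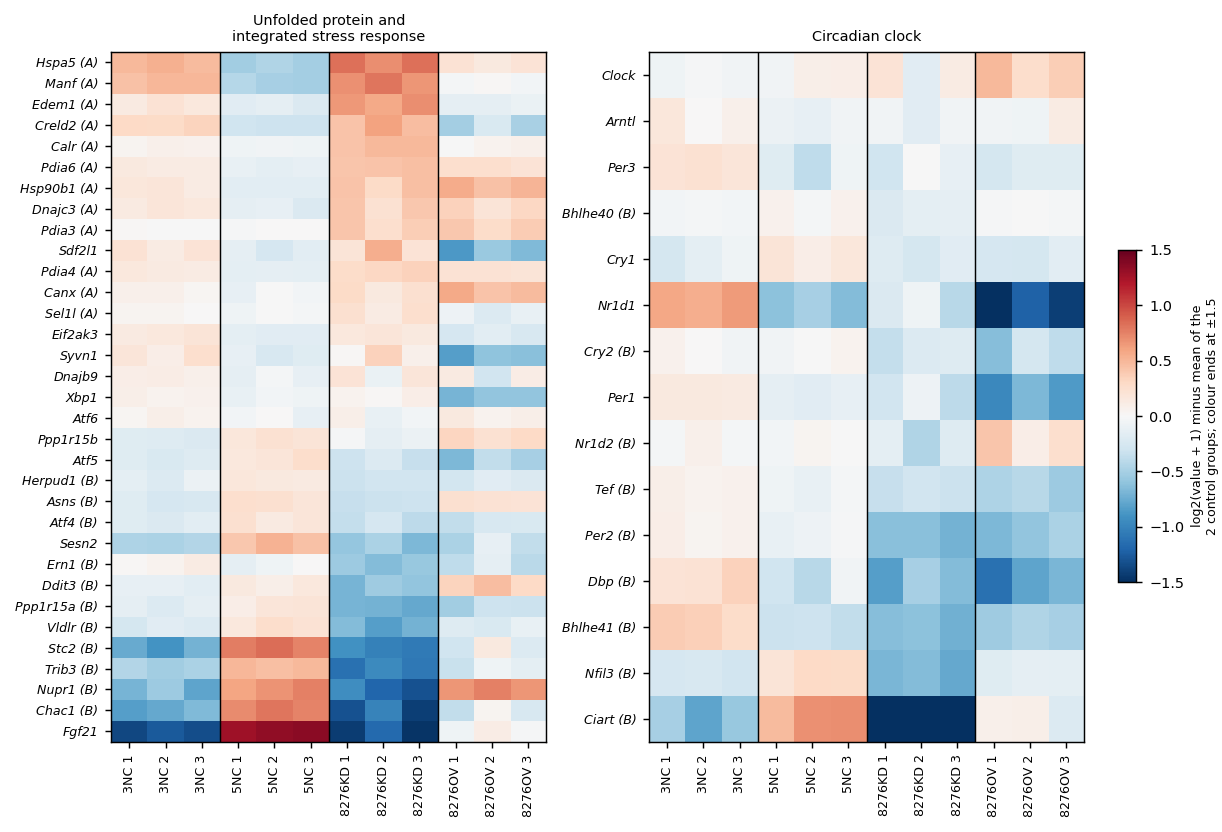
log2(value + 1) minus the mean of the 2 control group means for the tested genes of the stress response list (left) and 15 of the 16 of the clock list (right), a column per library and red for higher values; A marks genes above and B genes below all 6 controls. The chaperone genes at the top of the left panel are red in 8276KD, and the lower rows of both panels are blue in 8276KD.

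The E-box CACGTG, the element read by CLOCK and BMAL1, was in 10.6% of promoters, in 11.7% of those of genes above and in 12% of those below. It was in 3 of the 7 promoters found for clock genes below the controls. The promoter of Ciart held 3, starting 116, 58 and 44 bases before the start, and those of Tef and Bhlhe41 held 1 each. The D-box TTATGTAA, added after the values were seen, was in 0 of these 7 and in 0.383% of all promoters. The antioxidant response element (TGACNNNGC, 14.7% of all promoters), the AP-1 site (TGACTCA, 3.24%), the cAMP response element (TGACGTCA, 3.49%) and the TATA box (TATAAA, 6.39%) were in 15.9%, 3.28%, 4.4% and 8.39% of promoters of genes above and in 16.2%, 2.52%, 3.3% and 6.6% of those below. Ciart is shown as the clock gene with the largest gap, in the 250 bases before its start (chr3:95882229-95882478, minus strand, GRCm38.p6), with the E-boxes in capitals:
Ciart promoter: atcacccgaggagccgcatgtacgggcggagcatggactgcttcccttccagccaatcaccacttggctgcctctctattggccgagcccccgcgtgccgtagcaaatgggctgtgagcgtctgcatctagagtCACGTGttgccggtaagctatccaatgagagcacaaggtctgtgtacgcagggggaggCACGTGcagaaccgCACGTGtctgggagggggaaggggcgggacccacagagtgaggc

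Immediate early genes, which respond to growth signals within minutes and without new protein synthesis, lay mostly on the lower side. Of 28 tested, 11 were below all controls (39.3%) and 3 above (10.7%), against 11.3% and 10.8% of all genes tested. In the limma fit 15 fell and 6 rose, where 24.5% and 20.7% of all genes did. Of the 11, 9 stayed outside under all 4 scalings, as did the 3 above. Myc, a growth-promoting transcription factor, was at 22.3, 23.9 and 23.9 in 3NC, 35, 34.4 and 33.1 in 5NC and 16.7, 18.9 and 17.6 in 8276KD (difference -0.64, SE 0.0562, adjusted p = 1.62e-06). Junb, an AP-1 subunit, was at 54.3, 47.1 and 51.4 in 3NC, 42.9, 40.6 and 41.4 in 5NC and 26.3, 36.1 and 27.6 in 8276KD (-0.61, SE 0.0902, adjusted p = 1.25e-04). Replicate 2 of 8276KD was the highest of the 3 for Junb but still lay below the controls. Ier2 fell by 0.57 (controls 15.1 to 19.6, 8276KD 10.2 to 12.9), and the zinc finger factor Egr1 by 1.17 (controls 20.8 to 48.2, 8276KD 13.1 to 14.3). On the upper side the small GTPase Rhob was at 42.4, 37.4 and 41.8 in 3NC, 45.5, 45.7 and 43.9 in 5NC and 50.8, 62.1 and 54.2 in 8276KD (0.37, SE 0.0622, adjusted p = 3.58e-04), Ier5 rose by 0.25 and the MAP kinase phosphatase Dusp1 by 0.31. Fosl1, chosen after its values were seen, is an example of a gene that the rule leaves out: it was at 31.2, 29.8 and 31.9 in 3NC, 1.61, 1.98 and 1.58 in 5NC and 7.75, 9.77 and 7.6 in 8276KD, so the knockdown lay between the controls and the pooled difference was 0.00.

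Growth factor receptors had 7 of 20 tested genes below all controls (35%) and 2 above (10%), against 11.3% and 10.8% of all genes tested. In the limma fit 9 fell and 3 rose, where 24.5% and 20.7% of all genes did. Of the 7, 4 stayed outside under all 4 scalings, as did the 2 above. Egfr, the EGF receptor, was at 8.04, 9.76 and 8.26 in 3NC, 7.3, 8.39 and 8.04 in 5NC and 5.3, 4.18 and 5.42 in 8276KD (-0.64, SE 0.0787, adjusted p = 2.84e-05). Met, the receptor of hepatocyte growth factor, was at 23.5, 24.8 and 23.7 in 3NC, 23.1, 26.1 and 24.9 in 5NC and 18.5, 16.1 and 17.6 in 8276KD (-0.46, SE 0.0549, adjusted p = 2.18e-05). The ephrin receptor Epha2 fell by 0.23 and Igf2r, which clears IGF2 and sorts lysosomal enzymes, by 0.35. Erbb3, a partner of the EGF receptor family, moved the other way, with 2.63, 2.4 and 2.46 in 3NC, 2.35, 2.24 and 2.09 in 5NC and 3.51, 3.24 and 3.26 in 8276KD (0.37, SE 0.0628, adjusted p = 3.94e-04). Tyro3 was above the controls by a gap of 0.02 with an adjusted p of 0.0477.

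Chemokines divided. Ccl5, which draws T cells and monocytes, was at 39.2, 41.1 and 38.3 in 3NC, 33.6, 39.1 and 38.9 in 5NC and 17.7, 18.2 and 18 in 8276KD (difference -1.05, SE 0.0592, adjusted p = 4.13e-08). Cxcl10, a chemokine induced by interferon, was at 13.4, 14.3 and 13.1 in 3NC, 20.9, 20.1 and 19.6 in 5NC and 7.01, 7.47 and 8.15 in 8276KD (-1.04, SE 0.0582, adjusted p = 4.00e-08), while 8276OV was above all controls at 29.8, 26 and 30.1. Ccl2, the monocyte chemokine, was instead above them, at 241, 215 and 248 in 3NC, 230.5, 229 and 229 in 5NC and 350.4, 336 and 312 in 8276KD (0.52, SE 0.0555, adjusted p = 9.48e-06), and 8276OV was at 383, 443 and 386. In the NF-kB and chemokine list of 27 genes, 5 were below all controls (18.5%) and 1 above (3.7%), and these 6 stayed so under all 4 scalings. In the limma fit 8 fell and 4 rose, where 24.5% and 20.7% of all genes did. The membrane-bound chemokine Cx3cl1 fell by 0.46 and the NF-kB subunit gene Nfkb2 by 0.35.

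Of 38 genes of the interferon response and antigen presentation, 9 were below all controls (23.7%) and 1 above (2.63%), against 11.3% and 10.8% of all genes tested. In the limma fit 13 fell and 2 rose (24.5% and 20.7% of all genes), and 6 of the 9 stayed below under all 4 scalings. Rsad2, the antiviral protein viperin, was at 1.05, 1.14 and 1.17 in 3NC, 2.01, 2.42 and 2.06 in 5NC and 0.41, 0.62 and 0.61 in 8276KD (-0.75, SE 0.0749, adjusted p = 5.45e-06). Oasl1, of the oligoadenylate synthetase-like family, fell by 0.53 (controls 16.5 to 20.2, 8276KD 11.7 to 13). The interferon regulators Irf7 and Irf3 fell by 0.56 and 0.29. H2-D1, a class I histocompatibility antigen, rose by 0.28 (controls 97.8 to 112, 8276KD 123 to 138).

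Genes of the G2 and M phases of the cell cycle were above the controls or overlapped them. Of 55 tested, 18 were above all 6 (32.7%) and 0 below, against 10.8% and 11.3% of all genes tested. In the limma fit 36 rose and 0 fell (20.7% and 24.5% of all genes), and 11 of the 18 stayed above under all 4 scalings. Ccnf, a cyclin that acts in a ubiquitin ligase, was at 21.3, 22.5 and 22.5 in 3NC, 20.9, 19.3 and 20.5 in 5NC and 29.6, 31.4 and 30.1 in 8276KD (difference 0.50, SE 0.047, adjusted p = 2.99e-06). Cks2, a binding partner of cyclin-dependent kinases, was at 155, 159 and 143 in 3NC, 98.6, 92.2 and 93.5 in 5NC and 195, 185 and 208 in 8276KD (0.70, SE 0.0489, adjusted p = 2.59e-07). Its paralogue Cks1b rose by 0.40 and the cyclin gene Ccna2 by 0.30. The median difference of the list was 0.20, against -0.02 over all genes tested. The list has a median GC content of 46.1%, below the 49.7% of all genes. The other 7 of the 18 genes overlapped the controls under at least 1 of the 4 scalings, and the part of GC content in the count was not tested further.

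Replication genes leaned the other way. Of 49 genes of S phase, 11 were below all controls (22.4%) and 5 above (10.2%), against 11.3% and 10.8% of all genes tested. In the limma fit 16 fell and 10 rose, where 24.5% and 20.7% of all genes did. Under all 4 scalings 10 of the 11 and 4 of the 5 stayed outside. Pold2, a subunit of DNA polymerase delta, was at 117, 113 and 122 in 3NC, 104, 112 and 116 in 5NC and 77.6, 85.2 and 69.7 in 8276KD (-0.55, SE 0.0792, adjusted p = 9.96e-05). 8276OV was also below all controls for Pold2 (47.76, 64.17 and 56.99). Gins2 and Mcm3, parts of the replicative helicase, fell by 0.33 and 0.29, and Cdca7 by 0.20. The flap endonuclease Fen1 rose by 0.34, the histone mRNA binding protein Slbp by 0.28, the licensing inhibitor Gmnn by 0.29 and the single-strand binding subunit Rpa3 by 0.30. For Fen1 8276OV was on the other side, below all controls (37.03, 38.44 and 36.67). Among G1 cyclins and inhibitors, 7 of 30 were below (23.3%) and 4 above (13.3%). Cdkn2b, the inhibitor p15, was at 17.1, 17.1 and 18.8 in 3NC, 14.4, 12.5 and 13.1 in 5NC and 8.56, 10.5 and 9.89 in 8276KD (-0.62, SE 0.0672, adjusted p = 1.05e-05), and Cdkn1c, the inhibitor p57, fell by 0.80. For Cdkn1c the step to 8276KD (1.05, 1.46 and 1.42) was smaller from 3NC (2.06, 2.14 and 1.79) than from 5NC (5.29, 4.12 and 3.84). Mxi1, an antagonist of MYC, fell by 0.57, and the cyclin genes Ccnd3 and Ccne1 rose by 0.24 and 0.21. For Mxi1 the step to 8276KD (13.6, 12.82 and 13.45) was larger from 3NC (24.98, 25.19 and 25.73) than from 5NC (15.9, 15.38 and 16.78).

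Cytoskeletal genes outside the controls lay mostly on the upper side. Of 20 genes of the stathmin and tubulin list, 7 were above all controls (35%) and 0 below, 11 rose and 1 fell, and 6 of the 7 stayed above under all 4 scalings. Tubb2a, a beta tubulin, was at 59, 56.2 and 59 in 3NC, 50.6, 50.9 and 49.1 in 5NC and 76.1, 87.9 and 75.5 in 8276KD (difference 0.55, SE 0.0511, adjusted p = 2.78e-06). Tubb4b rose by 0.53 and the alpha tubulin gene Tuba1a by 0.40, and reads can be split between such near-identical tubulin copies. Of 31 actin and contractile genes, 8 were above (25.8%) and 2 below (6.45%), 14 rose and 5 fell, and 7 of the 8 and 0 of the 2 stayed outside under all 4 scalings. Over all genes tested, 10.8% were above and 11.3% below, and 20.7% rose and 24.5% fell. Actb, beta actin, often used as a reference gene, was at 1250.3, 1183 and 1210.3 in 3NC, 1274, 1183 and 1215 in 5NC and 1591, 1849.9 and 1557 in 8276KD (0.45, SE 0.0518, adjusted p = 1.78e-05), and 8276OV overlapped the controls at 1167, 1289.7 and 1229. Tagln2 rose by 0.35, the myosin light chain gene Myl12a by 0.25 and cofilin (Cfl1) by 0.22. Flna was below the controls by a gap of 0.00487 with an adjusted p of 0.263, and its difference turned positive after correction for GC content.

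Of 13 keratins and other intermediate filament genes, 6 were above all controls (46.2%) and 1 below, against 10.8% and 11.3% of all genes tested. In the limma fit 8 rose and 1 fell (20.7% and 24.5% of all genes), and all 7 outside the controls stayed so under the 4 scalings. Krt80 was at 11.1, 10.3 and 10.5 in 3NC, 13.1, 11.9 and 11.7 in 5NC and 17.5, 20.1 and 16.9 in 8276KD (0.63, SE 0.0743, adjusted p = 2.13e-05), Krt19 at 255, 245 and 251 in 3NC, 220.0, 206 and 209 in 5NC and 302, 374 and 322 in 8276KD (0.52, SE 0.063, adjusted p = 2.43e-05), and replicate 2 of 8276KD was the highest for both. Nestin (Nes) rose by 0.45 and lamin B1 (Lmnb1) by 0.48. Vimentin (Vim), the filament of mesenchymal cells, was the gene below, with 553, 520.1 and 534 in 3NC, 564, 522 and 525 in 5NC and 419, 466 and 438 in 8276KD (-0.28, SE 0.0418, adjusted p = 1.30e-04). Krt8, Krt18, Krt19 and Wt1 are also on the list of mesothelial and surface epithelial markers, of which 4 of 18 tested were above (22.2%) and 0 below. Wt1 rose by 0.24 (controls 49.8 to 53.1, 8276KD 59.2 to 62.8). As given above, the summed level of that list lay between the control groups, and its part in these differences was not tested. Vim and Wt1 are also on the list of Sertoli cell markers, 10 of 18 of which stayed below 1 in all 12 libraries. The summed level of that list was 531 to 575 in 8276KD and 622 to 674 in the 6 controls. Vim alone made up most of this sum (419 to 466 in 8276KD, 520.1 to 564 in the controls), and Wt1 went the other way. The sum therefore mainly follows Vim.

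The list of desmosome and plakin genes held 18 genes, of which 8 stayed below 1 in all 12 libraries. Desmosomes are the junctions that anchor keratins. Of the 10 genes of this list that were tested, 4 were above all controls and 1 below, against 10.8% and 11.3% of all genes tested. Dsp, desmoplakin, was at 1.22, 1.62 and 1.4 in 3NC, 2.27, 2.36 and 2.16 in 5NC and 4.28, 3.59 and 4 in 8276KD (difference 0.82, SE 0.0739, adjusted p = 2.18e-06). The controls differed from each other and the knockdown exceeded all of them. Perp rose by 0.42, plakoglobin (Jup) by 0.41 and Pkp4 by 0.28, while Dst fell by 0.22. Basement membrane genes went mostly the other way: of 11 tested, 5 were below (45.5%) and 2 above, 7 fell and 2 rose, and all 7 outside the controls stayed so under the 4 scalings. Beside Npnt, fibronectin (Fn1) was at 7.65, 8.62 and 8.57 in 3NC, 7.35, 7.5 and 8.19 in 5NC and 5.67, 5.93 and 5.98 in 8276KD (-0.39, SE 0.0549, adjusted p = 9.45e-05), Nid2 fell by 0.55 and Lamb2 by 0.63, while Lamb1 rose by 0.16. For Lamb2 the step to 8276KD (21.48, 24.12 and 21.47) was smaller from 3NC (28.3, 27.69 and 26.49) than from 5NC (47.61, 42.7 and 44.11). Among cell adhesion molecules of the immunoglobulin family Mcam was the only gene above, and Ncam1 was at 11.1, 10.6 and 11.2 in 3NC, 14.9, 14.6 and 14.9 in 5NC and 7.78, 7.61 and 6.97 in 8276KD (-0.70, SE 0.0465, adjusted p = 1.68e-07). Cd47, which protects cells from being engulfed, fell by 0.35 and Igsf8 by 0.49. Epcam, which was counted on the same list though it is not of that family, fell by 0.45. Of the cadherins, Cdh10 fell by 0.70 and P-cadherin (Cdh3) by 1.12, the last with 19.47, 19.24 and 19.9 in 3NC, 65.55, 66.32 and 65.52 in 5NC and 15.05, 16.76 and 16.25 in 8276KD. N-cadherin (Cdh2) overlapped 3NC at 50.1, 47.2 and 52.3 and was well below 5NC (91, 92.1 and 91.8), and E-cadherin (Cdh1) reached at most 0.07.

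Of 50 splicing factor genes, 18 were above all controls (36%) and 3 below (6%), against 10.8% and 11.3% of all genes tested. In the limma fit 24 rose and 9 fell (20.7% and 24.5% of all genes), and 14 of the 18 stayed above under all 4 scalings. Srsf3, an SR protein, was at 168, 161 and 157 in 3NC, 160.0, 166 and 158 in 5NC and 258, 228 and 249 in 8276KD (difference 0.60, SE 0.044, adjusted p = 4.11e-07), and Srsf5 at 217, 225 and 218 in 3NC, 215, 224 and 223 in 5NC and 309, 294 and 312 in 8276KD (0.47, SE 0.0318, adjusted p = 2.19e-07). The controls of these genes nearly coincided. Snrpd1, a core protein of the spliceosome, rose by 0.65, and Hnrnpul1, Sf3a2 and Sf3b4 fell by 0.43, 0.47 and 0.46. Of 52 translation initiation factor genes, 13 were above (25%) and 3 below (5.77%), and 8 of the 13 stayed above under all 4 scalings. Eif3j1 rose by 0.40 and Eif2s2 by 0.32, and Eif1b, below the controls, was at 58.3, 60.0 and 61 in 3NC, 68.8, 71.1 and 73.2 in 5NC and 38.2, 39.4 and 38.8 in 8276KD (-0.73, SE 0.0377, adjusted p = 2.33e-08). 8276OV was also above all controls for Eif3j1 (41.4, 32.77 and 38.59) and Eif2s2 (473.48, 456.31 and 472.04), and below them for Eif1b (56.62, 52.22 and 54.97). Of 37 proteasome genes, 9 were above (24.3%) and 0 below, 19 rose and 2 fell, and 5 of the 9 stayed above under all 4 scalings. Psma4, a core subunit, was at 186, 199 and 189 in 3NC, 164, 169.6 and 166 in 5NC and 255, 246 and 258 in 8276KD (0.50, SE 0.0366, adjusted p = 3.94e-07). Its 8276OV values, 284.87, 270.0 and 295.1, were above all controls as well.

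Of 86 genes of oxidative phosphorylation, 20 were above all controls (23.3%) and 2 below (2.33%), against 10.8% and 11.3% of all genes tested. Only 7 of the 20 stayed above under all 4 scalings. Ndufs4, a complex I subunit, was at 46.4, 44.9 and 45.3 in 3NC, 43.6, 45.5 and 43.7 in 5NC and 54.7, 54.5 and 58.7 in 8276KD (0.31, SE 0.0441, adjusted p = 9.21e-05), and Atp5mpl rose by 0.55. Of 77 mitochondrial ribosomal protein genes 17 were above (22.1%) and 2 below, and 12 of the 17 stayed above. Mrps33 rose by 0.42. 8276OV was also above all controls for Ndufs4 (72.7, 64.31 and 70.88), Atp5mpl (315.08, 296.46 and 313.93) and Mrps33 (109.06, 106.85 and 113.16). Cytosolic ribosomal protein genes lay on both sides, 14 of 80 above and 16 below, and 5 and 8 of them stayed outside under all 4 scalings. The median difference of those 80 genes was -0.10 against 3NC and 0.11 against 5NC.

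**Figure D4:**
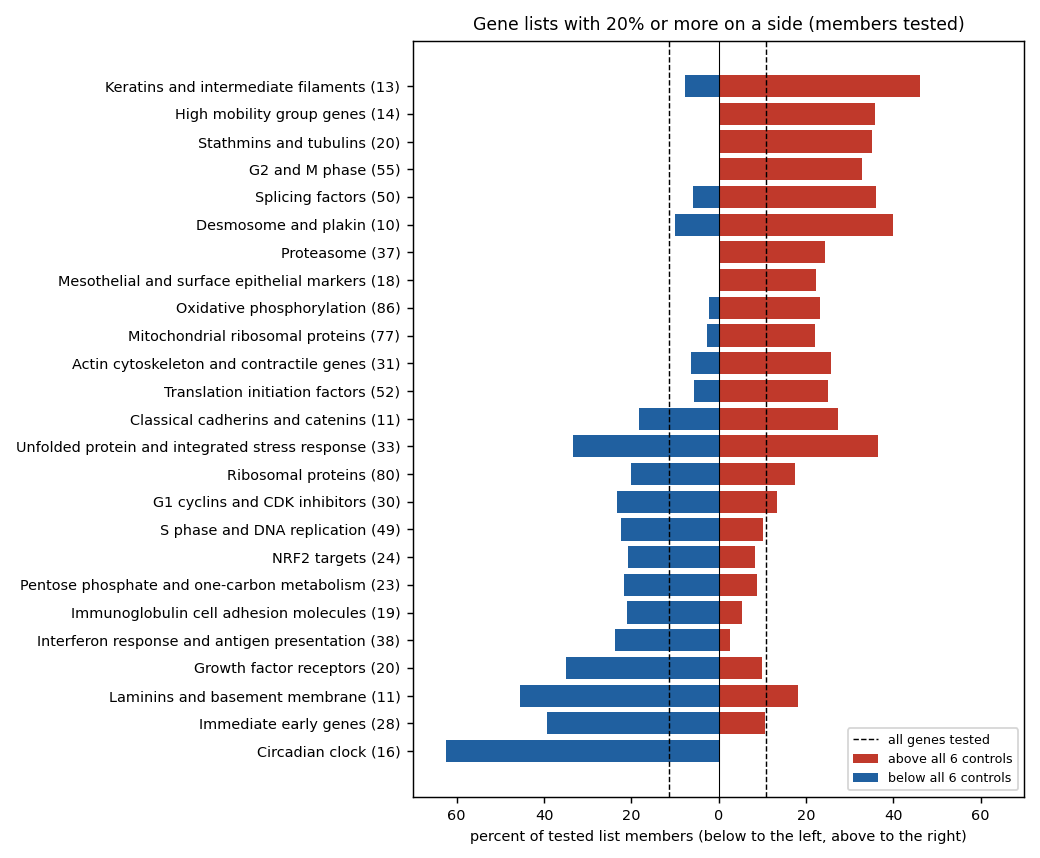
Percent of the tested members of each gene list that lay above (red, to the right) or below (blue, to the left) all 6 controls. Shown are lists with 10 or more tested genes and 20% or more on a side, with the number tested in brackets. Dashed lines mark the 10.8% above and 11.3% below among all genes tested, and the clock list has the longest bar, 62.5% below.

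Of 36 genes of hypoxia and glycolysis, 6 were below all controls (16.7%) and 1 above, against 11.3% and 10.8% of all genes tested. All 7 stayed so under the 4 scalings. For the list as a whole the direction depended on the control, with a median difference of -0.47 against 3NC and 0.17 against 5NC. Vegfa, the endothelial growth factor, was at 50.6, 50.6 and 52.6 in 3NC, 57.6, 50.1 and 53 in 5NC and 33.8, 40.1 and 36.7 in 8276KD (difference -0.50, SE 0.0543, adjusted p = 1.09e-05). Ddit4, an inhibitor of mTOR, fell by 0.55, Ndrg1 by 0.56 and the carbonic anhydrase gene Car12 by 0.68, and Pfkfb3 rose by 0.16. Of 39 lysosome and autophagy genes, 7 were below (17.9%) and 4 above (10.3%), and 6 of the 7 and 2 of the 4 stayed outside under all 4 scalings. In the limma fit 22 of them fell and 4 rose, where 24.5% and 20.7% of all genes did. Atg9a, a membrane protein of autophagosome formation, was at 11.2, 11.3 and 10.6 in 3NC, 9.35, 9.33 and 10.2 in 5NC and 6.43, 6.95 and 6.99 in 8276KD (-0.54, SE 0.0737, adjusted p = 7.29e-05), and Gabarapl2, which joins that membrane, was above, at 109, 108 and 106 in 3NC, 111, 109 and 114 in 5NC and 145, 141 and 150.1 in 8276KD (0.41, SE 0.0389, adjusted p = 3.35e-06). 8276OV was also below all controls for Atg9a (4.69, 6.54 and 5.61) and above them for Gabarapl2 (158.56, 149.53 and 167.56). The cholesterol transporters Npc2 and Npc1 and the protease gene Ctsb fell by 0.30, 0.27 and 0.27. Among solute carriers, 21 of 181 were below (11.6%) and 18 above (9.94%), near the shares of all genes tested (11.3% and 10.8%). Slc40a1, the iron exporter ferroportin, was at 1.12, 1.07 and 0.98 in 3NC, 1.13, 0.9 and 0.68 in 5NC and 2.27, 2.02 and 1.94 in 8276KD (0.64, SE 0.0771, adjusted p = 2.48e-05), and Slc7a2, a transporter of cationic amino acids, at 1.65, 1.75 and 1.8 in 3NC, 1.67, 1.69 and 1.91 in 5NC and 0.74, 0.68 and 0.61 in 8276KD (-0.71, SE 0.0636, adjusted p = 2.03e-06). Of 18 glutathione transferase genes, 3 were below (Gsta4, Gsta1 and Gsto1, 16.7%) and 1 above (Gstm6, 5.56%).

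Of 35 genes of stem spermatogonia 16 were tested, of which 3 lay below all controls (18.8%) and 2 above (12.5%), against 11.3% and 10.8% of all genes tested. Eomes, a T-box factor, was at 1.25, 1.25 and 1.41 in 3NC, 1.63, 1.42 and 1.08 in 5NC and 2.58, 2.21 and 2.17 in 8276KD (difference 0.51, SE 0.0808, adjusted p = 2.41e-04). Tspan33 fell by 0.58, and the surface marker Itga6 by 0.31, with 4.98, 6.08 and 5.48 in 3NC, 4.31, 4.74 and 4.47 in 5NC and 4.04, 3.22 and 4.24 in 8276KD. Etv5, a target of GDNF, lay between the controls, at 7.82, 7.89 and 7.72 in 3NC, 2.7, 3.52 and 3.07 in 5NC and 3.81, 4.59 and 3.86 in 8276KD. Id4, an inhibitor of differentiation factors, overlapped them at 2.09, 1.37 and 1.79 in 8276KD (adjusted p = 0.147). Itgb1, at 316, 281 and 313, overlapped 5NC, and Cd9, at 89.6, 85 and 83.9, lay between the controls. Of 30 germ cell and meiosis markers 24 stayed below 1 in all 12 libraries, and Tex19.1, the gene above the controls, was at 102.94, 100.03 and 101.27 in 3NC, 76.39, 66.87 and 67.15 in 5NC and 105.29, 124.75 and 115.75 in 8276KD (0.44, SE 0.0604, adjusted p = 6.79e-05). The summed level of markers of macrophages and leukocytes, 8 of 10 of which stayed below 1, was 3.77 to 4.44 in 8276KD and 2.86 to 7.25 in the controls. That of endothelial markers was 15.4 to 17.1 and 14.7 to 16.7.

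The genes on either side of the controls differed in GC content, transcript length and chromosome, which the rule did not use, and in mean level. Those above had a median GC content of 46.5%, those below of 52.3%, and all genes tested of 49.7%. With genes divided into 10 bins of equal size, the bin of lowest GC content had 15% above and 3.93% below, and the bin of highest GC content 2.23% above and 14.3% below. Genes above were also more abundant, with a median level of 29.5 against 12.5 for genes below and 14.1 for all. The share above rose from 5.71% in the bin of lowest mean level to 25.7% in the highest. Mean level was taken over the same 9 libraries that the rule compares, after a filter on level, so it is not independent of the rule. Median transcript length was 3058 bases above, 3828 below and 3424 over all genes. By chromosome, the share above ran from 6.42% on chromosome 7 to 18.7% on chromosome 18, and the share below from 4.93% on the X chromosome to 14.7% on chromosome 8. These are descriptions over genes, which are not independent, and share the slope of value on GC content given above for each library.

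**Figure D5:**
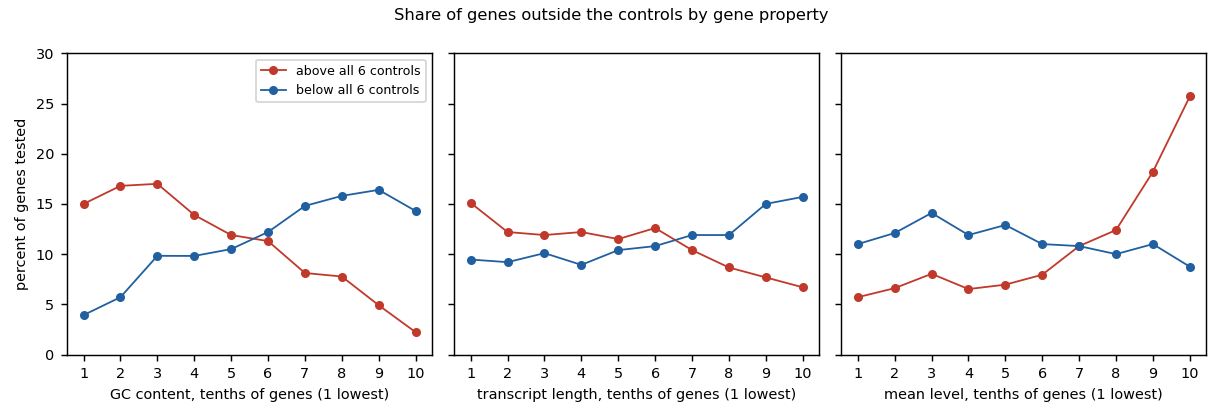
Percent of tested genes above (red) and below (blue) all 6 controls, by 10 bins of equal size of GC content, transcript length and mean level, lowest to the left. The red line falls from the third bin of GC content on, the blue line climbs to 16.4% in the ninth bin, and the red line rises with mean level to 25.7% in the highest bin.

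After the deviation along GC content was removed from each library, 1098 of 1220 genes above and 977 of 1270 below with a GC value stayed outside all controls. With quantile normalization 1072 of 1228 and 983 of 1287 stayed outside. With median-of-ratios factors 1225 and 1168 did. With correction for GC content and transcript length together 1041 of 1220 and 935 of 1270 did, and 1 gene moved to the opposite side. Under all 4 scalings 939 genes stayed above and 792 below, Stmn4, Cdkn3, Mcam, Calr, Xdh, Npnt, Ciart and Egfr among them.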

How the data were processed

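RNA of 12 C18-4 libraries, 3 in each of 4 groups, was compared from a table of 17576 genes. The deposited values are taken as FPKM from their size and sums, because the labels give no unit. Whether they are TPM was not tested. Reads were placed on mm10, per the submitters' processing notes. For the aligner, quantifier, annotation and strand: not given in the sources used here. The table gives no read totals, and depth was inferred from the smallest steps of the values and transcript lengths, so it is approximate. It held 25 symbols that had turned into dates and 2 shared by another identifier, which were settled through RefSeq (17458 genes matched).

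The 11360 genes that reached 1 in 3 or more of 12 libraries were tested. Values were compared as log2(value + 1), a scale that understates changes of low genes, with limma 3.58.1 (R 4.3.3): 1 fit over the 12 libraries with a mean per group, a trended robust prior, 8276KD minus the mean of the 3NC and 5NC means, and Benjamini-Hochberg adjustment over all genes at 0.05. SE and adjusted p in the text come from this fit, which was tested on simulated data. GC content and length came from the longest GENCODE transcript (11197 genes, 98.6%). The members and gene lists were chosen with earlier results of these data known. Named genes were the 15 with the largest gap on each side (mean of at least 1), 5 on each side among those whose control means differ by less than 0.2, up to 4 on each side of a list, 15 fixed germ line and adhesion genes, and the 2 nearest to each edge of the rule. Others are said to have been chosen after their values were seen. Alternatives changed the pseudocount, filter, scaling, prior, control group, replicate block and libraries. Correction for GC content and length together, and the lists without 8276KD replicate 2, were added after the data were seen. Single values of 3 members of these sets are not reported here, and they stay in the counts.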

Additional observations from a re-analysis of the deposited data

How the results depend on the processing

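With the 6 controls as a single group, whose spread then holds the difference between 3NC and 5NC, 1012 genes were higher and 1009 lower, against 2356 and 2782. A gap of at least 0.25 left 138 genes above and 171 below. With 1 of the 9 libraries left out, higher genes numbered 1813 to 2571 and lower genes 2119 to 3094. Genes called against both control groups numbered 693 to 1236 higher and 674 to 1218 lower. Genes outside the controls numbered 1268 to 2055 above and 1353 to 2243 below, since fewer libraries make the rule easier to meet. The highest of these last counts came without 8276KD replicate 2, the library whose slope on GC content stood apart. The replicate block gave 2328 higher and 2787 lower genes, and 973 and 960 against both controls. Same-numbered libraries shared only a number: their deviations correlated at -0.254 to 0.0883, and 1 of 9 libraries correlated best with its own number. With the block the adjusted p of Tyro3 was 0.0637. Flna, not called at -0.06, turned to 0.0121 (adjusted p = 0.797 in limma) with correction for GC content and to 0.0733 (adjusted p = 0.0386) with correction for GC content and length; the cause was not tested. Quantile normalization gave 2693 higher and 2429 lower genes and correction for GC content 3034 and 2751. Precision is limited by 3 libraries a group and, for genes near a value of 1, by few fragments.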
